A study of Mus musculus with 4 samples.

Results

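DNA methylation was examined at 7 mouse genes that direct or mark cell fates other than the dopaminergic (DA) neuron. They are Sox17, T, Gata4, Gata6, Twist1, Sox9 and Des, and they were chosen by name, as genes of the mesoderm, endoderm and fibroblast lineages, with 1 window of mm9 coordinates around each gene. Earlier results of these data were known when the genes and windows were chosen. A cytosine position was used when it had at least 5 methylation calls in each library, and covered positions spaced less than 100 bp apart were joined into a run. The windows held 547 such positions, of 629262 in the genome. Of these, 490 lay in 32 runs of at least 5 positions, out of 31564 runs of that size in the genome, and 57 lay in 27 smaller runs. All 7 genes had at least 2 runs of at least 5 positions. The level of a run is its methylated calls as a percentage of all its calls.

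The data are reduced representation bisulfite sequencing (RRBS) of 4 libraries. In RRBS, genomic DNA is cut with MspI at CCGG, so that CpG-rich fragments are enriched, and bisulfite turns unmethylated cytosines into bases read as T. The iPSC library came from induced pluripotent stem cells of Pitx3 Gfp/+ mice, made from fibroblasts of E14.5 embryos with retroviral Oct4, Klf4, Sox2 and cMyc. The NESTIN-GFP library came from cells of a separate Nestin Gfp/+ line, collected at day 14 of differentiation. Its label calls them neurons, while the study's methods call them neural precursors. The iPSC-DA library came from PITX3-GFP-sorted Pitx3 Gfp/+ neurons after 4 weeks of differentiation, which began on MS5 stromal feeder cells. The mdDA library came from primary PITX3-GFP-sorted mesodiencephalic DA neurons of Pitx3 Gfp/+ embryos at E14.5. PITX3 is a transcription factor that marks midbrain DA neurons, and each Pitx3 line carries 1 reporter allele in place of a normal one. The sources used here do not say which iPSC clone was sequenced or how many embryos were pooled.

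There was 1 library per condition, so the spread between replicates is unknown, and every test below compares libraries and not conditions. The precursors differ from the other libraries in reporter line as well as in stage, and these cannot be told apart. The median depth over the 547 positions was 94 calls in iPSCs, 16 in NESTIN-GFP precursors, 107 in iPSC-DA neurons and 107 in primary mdDA neurons. Values for precursors are therefore the least precise. Intervals are Wilson 95% intervals for levels and Newcombe 95% intervals for differences. They cover counting error alone, since calls on the same read are linked and PCR copies cannot be recognised. Gene expression was not analysed here.

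These genes are textbook regulators and markers of the germ layers. Sox17 encodes an HMG-box factor of the endoderm, and Gata4 and Gata6 encode zinc finger factors of endoderm and heart. T, also called Brachyury, is the T-box factor of the primitive streak and early mesoderm. Twist1 is a basic helix-loop-helix factor of mesenchyme and neural crest, while Sox9 is required in cartilage and neural crest and is also expressed by neural stem cells and glia. Des encodes desmin, the intermediate filament of muscle, and is the only one of the 7 that does not encode a transcription factor. CpG islands at such genes are usually free of DNA methylation in normal tissues, also where the gene is silent. There, silence is commonly kept by Polycomb proteins.

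Most of the 32 runs were nearly free of methylation in iPSCs and in mdDA neurons and were partly methylated in iPSC-DA neurons. Pooled over the 32 runs, the level was 4.98% in iPSCs (95% interval 4.79 to 5.18), 17.1% in NESTIN-GFP precursors (16.4 to 17.9), 35.3% in iPSC-DA neurons (35.0 to 35.7) and 5.33% in primary mdDA neurons (5.16 to 5.52). The median run was at 4.82% in iPSCs, 17.01% in precursors, 39.7% in iPSC-DA neurons and 6.00% in primary mdDA neurons. Over all 31564 runs of the genome, the median run was at 5.58%, 20%, 28.0% and 7.07% in the same order of libraries. Of the 32 runs, 30 were under 20% in iPSCs and 31 in mdDA neurons, whereas 27 lay between 20% and 60% in iPSC-DA neurons. The iPSC-DA library had the highest level of the 4 in 23 runs and the NESTIN-GFP library in 8.

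**Figure D1:**
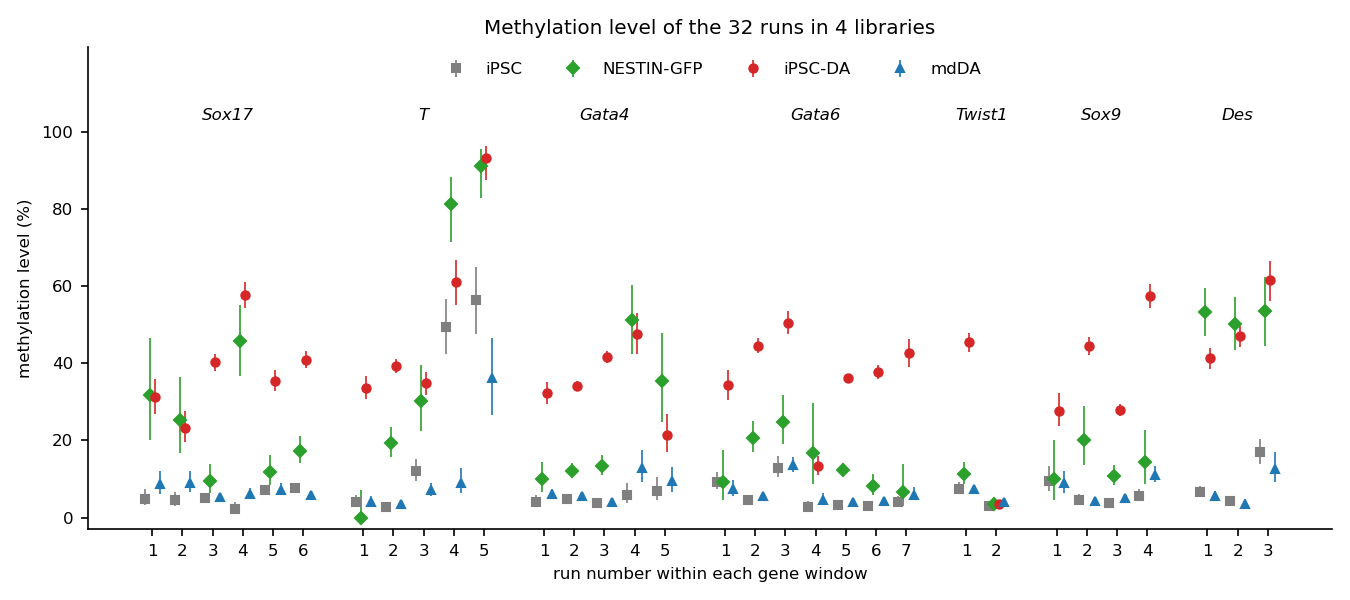
Methylation level (%) of each of the 32 runs in the 4 libraries, with runs numbered by position within each gene window on the x axis; points are levels and bars are Wilson 95% intervals for counting error. Red points (iPSC-DA) lie between 20% and 60% in 27 runs, while grey (iPSC) and blue (mdDA) points lie under 20% in all but 2 and 1 runs.

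The comparison of iPSC-DA with mdDA neurons asks how the DA neuron made in culture differs from its primary counterpart. A run was called when the adjusted p of Fisher's exact test (two-sided) on its calls, with Benjamini-Hochberg adjustment over all 31564 runs, was under 0.05 and the levels differed by at least 20 percentage points. Of the 32 runs, 27 were called higher and 0 lower in iPSC-DA neurons. Over all runs of the genome 24.3% were called higher and 1.66% lower. An adjusted p under 0.05 without the size criterion was reached by 31 runs, but the share of all runs that reached it was not counted. With a size criterion of 10 points, 30 runs were called higher, against 31.0% of all runs. The median difference of the 32 runs was 34.9 points, against 0.891 points over all runs. Runs that were low in iPSCs are a closer background: of the 30 runs under 20% in iPSCs, 25 were called higher, where 29.0% of such runs in the genome were. Of those with at least 10 positions, 14 of 15 were called, where the share in the genome was 28.5%. Because the genes were chosen with earlier results of these data known, these contrasts with the genome are a description. The 5 runs that were not called were Sox17 run 2, Gata4 run 5, Gata6 run 4, Twist1 run 2 and Sox9 run 1. Nearest to the size criterion lay Sox9 run 1 with 18.9 points on one side and Sox17 run 1 with 22.6 points on the other.

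**Figure D2:**
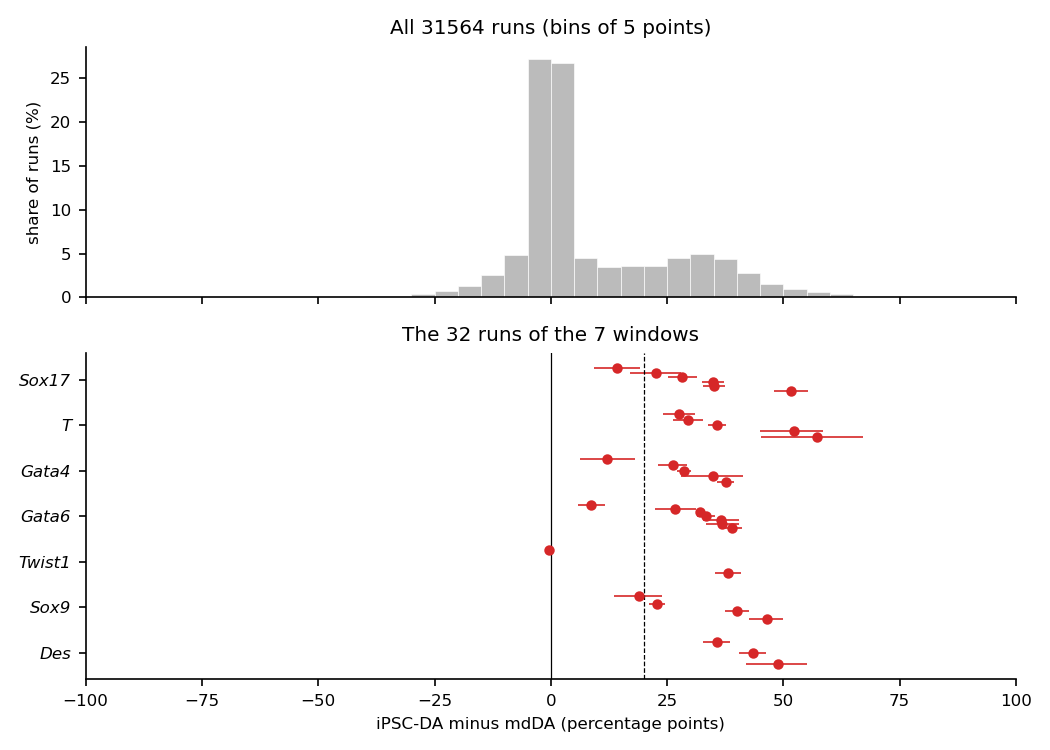
Upper panel: share of all 31564 runs (%) by difference in level, iPSC-DA minus mdDA, in bins of 5 percentage points. Lower panel: the same difference for each of the 32 runs by gene, with Newcombe 95% intervals and a dashed line at 20 points; 27 runs lie at or right of the line, and Twist1 run 2 lies at -0.379 points.

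By gene, the pooled difference between iPSC-DA and mdDA neurons was 40.6 points at Des (38.6 to 42.6), 34.6 at T (33.1 to 36.1), 33.8 at Sox17 (32.5 to 35.1), 32.6 at Gata6 (31.9 to 33.3), 31.3 at Gata4 (30.2 to 32.3), 31.2 at Sox9 (29.8 to 32.5) and 8.12 at Twist1 (7.20 to 9.05). From T to Sox9, each gene had an interval that overlapped that of the next, and differences between genes were not tested. Des lay above the other genes and Twist1 below them, with no overlap of intervals, but with unweighted means of positions T came to 42.2 points and Des to 41.3. A pooled gene value weights its longest and deepest runs most, and for Twist1 it joins runs that differed strongly.

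Gata6 had the longest run of the set and 6 of its 7 runs were called higher in iPSC-DA than in mdDA neurons. Run 5 (chr18:11054061-11054628, mm9, 83 positions over 568 bp) had a level of 3.37% in iPSCs (3.01 to 3.77), 12.4% in precursors (11.0 to 14.1), 36.1% in iPSC-DA neurons (35.2 to 36.9) and 3.94% in primary mdDA neurons (3.60 to 4.31). The difference between the DA libraries was 32.1 points (31.2 to 33.1), and 81 of its 83 positions were higher in iPSC-DA neurons. The higher level in iPSC-DA neurons was spread over the whole run and stayed under 60% at nearly every position. Of the 83 positions, 47 were between 20% and 40% in iPSC-DA neurons, 25 between 40% and 60%, and 1 reached 60%. One thinly covered position of this run, with 5 to 22 calls per library, went against the rest, at 71.4% in iPSCs, 40% in precursors, 59.1% in iPSC-DA neurons and 76.5% in primary mdDA neurons.

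The largest difference at Gata6 was that of run 2 (chr18:11048403-11048633, 27 positions), at 4.58% in iPSCs, 20.7% in precursors, 44.6% in iPSC-DA neurons and 5.53% in primary mdDA neurons. It came to 39.0 points (36.9 to 41.1), with all 27 positions higher in iPSC-DA neurons (adjusted p = 1.3e-235, Fisher's exact test). The other runs are given in the order iPSC, NESTIN-GFP, iPSC-DA and mdDA. Run 1 stood at 9.33%, 9.09%, 34.2% and 7.44%, and run 3 at 13.0%, 24.9%, 50.5% and 13.6%. Runs 6 and 7 were lowest in the first and last library, with 3.06%, 8.22%, 37.8% and 4.38%, and 4.13%, 6.67%, 42.6% and 5.96%. Run 4 (chr18:11053322-11053358, 5 positions) was the exception, at 2.73%, 16.7%, 13.3% and 4.67%. Its difference of 8.67 points (5.74 to 11.7) passed the test but not the size criterion.

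Gata4, the other GATA factor gene, showed the same order of libraries in its long runs. Run 2 (chr14:63859442-63859805, 40 positions) was at 4.78% in iPSCs (4.14 to 5.51), 12.1% in precursors (10.3 to 14.2), 34.0% in iPSC-DA neurons (32.7 to 35.4) and 5.49% in primary mdDA neurons (4.91 to 6.14). Run 3 (chr14:63863931-63864303, 27 positions) had the largest difference of the gene, with 3.83% in iPSCs (3.19 to 4.60), 13.4% in precursors (11.0 to 16.2), 41.6% in iPSC-DA neurons (39.98 to 43.3) and 4.05% in primary mdDA neurons (3.46 to 4.74). The DA libraries differed by 28.5 points (27.0 to 30.03) in run 2, where 39 of 40 positions were higher in iPSC-DA neurons, and by 37.6 points (35.8 to 39.3) in run 3, where all 27 were. Single positions of run 2 ranged widely in iPSC-DA neurons, from 3.70% to 68.3%, and 8 of them stayed under 20%.

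Of the short runs of Gata4, runs 4 and 5 already had high levels in the precursors. Run 4 (6 positions) was at 5.78% in iPSCs, 51.3% in precursors, 47.7% in iPSC-DA neurons and 12.7% in primary mdDA neurons. Run 5 (6 positions) was at 6.98%, 35.5%, 21.4% and 9.35% in the same order, and its 12.1 points between the DA libraries (6.21 to 18.1) stayed under the size criterion. In both, the precursor library was the highest of the 4, on 115 and 62 calls. Run 1 (8 positions) followed the long runs with 4.15%, 9.91%, 32.2% and 6.05%.

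Sox17 had 6 runs, and 5 of them were called higher in iPSC-DA than in mdDA neurons. Run 3 (chr1:4482391-4482683, 21 positions, the most of the gene) was at 5.08% in iPSCs (4.13 to 6.24), 9.43% in precursors (6.36 to 13.7), 40.2% in iPSC-DA neurons (38.1 to 42.5) and 5.37% in primary mdDA neurons (4.44 to 6.48). All 21 positions were higher in iPSC-DA neurons, none of them under 20%, and the difference was 34.9 points (32.4 to 37.3; adjusted p = 1.4e-157, Fisher's exact test). Run 4 (chr1:4483319-4483439, 10 positions) had the largest difference of the gene. It was at 2.20% in iPSCs (1.24 to 3.90), 45.9% in precursors (36.8 to 55.2), 57.8% in iPSC-DA neurons (54.3 to 61.1) and 6.06% in mdDA neurons (4.73 to 7.74). It differed by 51.7 points (47.9 to 55.3; adjusted p = 4e-135, Fisher's exact test) between the DA libraries, more than 97.9% of all runs of the genome. One of its 10 positions was at 62.5% in mdDA neurons and went against the other 9.

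The remaining Sox17 runs are given in the order iPSC, NESTIN-GFP, iPSC-DA and mdDA. Runs 5 (17 positions) and 6 (11 positions) stood at 7.05%, 11.8%, 35.4% and 7.12%, and at 7.55%, 17.4%, 40.9% and 5.94%. Runs 1 (6 positions) and 2 (8 positions) stood at 4.86%, 31.8%, 31.2% and 8.63%, and at 4.42%, 25.4%, 23.3% and 9.03%. In runs 1 and 2 the precursors were already as high as the iPSC-DA neurons within counting error, with differences between those libraries of -0.616 points (-16.0 to 12.1) and -2.03 points (-13.9 to 7.64). The intervals are wide because the precursors had 44 and 71 calls there.

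T had 5 runs, all called higher in iPSC-DA than in mdDA neurons, and they fell into separate kinds by their level in iPSCs. Runs 1 to 3 were low in iPSCs. Run 2 (chr17:8626692-8626769, 14 positions, the most of the gene) was at 2.64% in iPSCs (2.01 to 3.45), 19.3% in precursors (15.6 to 23.5), 39.2% in iPSC-DA neurons (37.4 to 41.1) and 3.47% in primary mdDA neurons (2.86 to 4.22), a difference of 35.7 points (33.7 to 37.7; adjusted p = 7e-257, Fisher's exact test) with all 14 positions higher. Run 3 (5 positions) was at 12.1%, 30.3%, 34.8% and 7.14% in that order of libraries. Run 1 (chr17:8626376-8626404, 5 positions) was at 4.02% in iPSCs, 33.7% in iPSC-DA neurons and 4.09% in primary mdDA neurons, and the precursors had 0 methylated of 50 calls, with a Wilson upper bound of 7.13%. These were 10 calls at each of 5 positions within 29 bp. Such calls can lie on the same reads, so this bound is too low to be relied on. At this depth no methylation was seen in precursors in run 1.

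Runs 4 and 5 of T were already methylated in iPSCs, and their pooled levels were lower in mdDA neurons than in iPSCs. Run 4 (chr17:8631231-8631336, 5 positions) was at 49.5% in iPSCs (42.3 to 56.6), 81.2% in precursors (71.3 to 88.3), 61.2% in iPSC-DA neurons (55.1 to 66.9) and 8.97% in primary mdDA neurons (6.24 to 12.7). Run 5 (chr17:8631606-8631716, 5 positions) was at 56.5% in iPSCs (47.7 to 64.9), 91.1% in precursors (82.8 to 95.6), 93.2% in iPSC-DA neurons (87.6 to 96.4) and 36.0% in primary mdDA neurons (26.7 to 46.6). The difference between the DA libraries was 57.2 points in run 5 (45.3 to 67.1; adjusted p = 1.5e-19, Fisher's exact test), the largest of the 32 runs, and 52.2 points in run 4 (45.1 to 58.5). Here the contrast with mdDA neurons joined a pooled level in iPSC-DA neurons above that of iPSCs with a pooled level in mdDA neurons below it. In run 4 the positions were mixed between iPSC-DA neurons and iPSCs: 3 were higher and 2 lower in iPSC-DA neurons, with a median difference of 0.780 points. Each of these runs had only 5 positions and between 79 and 301 calls per library. In run 5, the positions 0, 7 and 33 bp from its start had 7 calls each in mdDA neurons, at 14.3%, 0% and 14.3%. Calls that few can lie on the same reads. In iPSCs these positions were at 61.9%, 71.4% and 61.9%. The positions 91 and 110 bp from the start were at 56.7% and 34.3% in mdDA neurons, close to 58.8% and 33.3% in iPSCs.

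Twist1 had only 2 runs, of which 1 was higher in iPSC-DA neurons and the other was low in all 4 libraries. Run 1 (chr12:34640906-34641053, 11 positions) was at 7.48% in iPSCs (6.09 to 9.15), 11.2% in precursors (8.71 to 14.3), 45.4% in iPSC-DA neurons (43.0 to 47.9) and 7.31% in primary mdDA neurons (6.26 to 8.51). Run 2 (chr12:34642707-34643049, 40 positions) was at 2.98% in iPSCs (2.54 to 3.51), 3.52% in precursors (2.43 to 5.07), 3.62% in iPSC-DA neurons (3.15 to 4.15) and 3.997% in primary mdDA neurons (3.51 to 4.54). In run 1 all 11 positions were higher in iPSC-DA than in mdDA neurons, by 38.1 points overall (35.4 to 40.8; adjusted p = 1.7e-161, Fisher's exact test). In run 2 the difference was -0.379 points (-1.10 to 0.341; adjusted p = 0.44, Fisher's exact test), with 12 positions higher and 21 lower. Run 2 was deeply covered, with 5389 calls in iPSC-DA neurons and 5554 in primary mdDA neurons. The upper bound of its difference lay far below the differences of the other runs. It was the only one of the 32 runs whose level in iPSC-DA neurons lay below that in mdDA neurons, and 38 of its 40 positions were under 20% in iPSC-DA neurons.

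**Figure D3:**
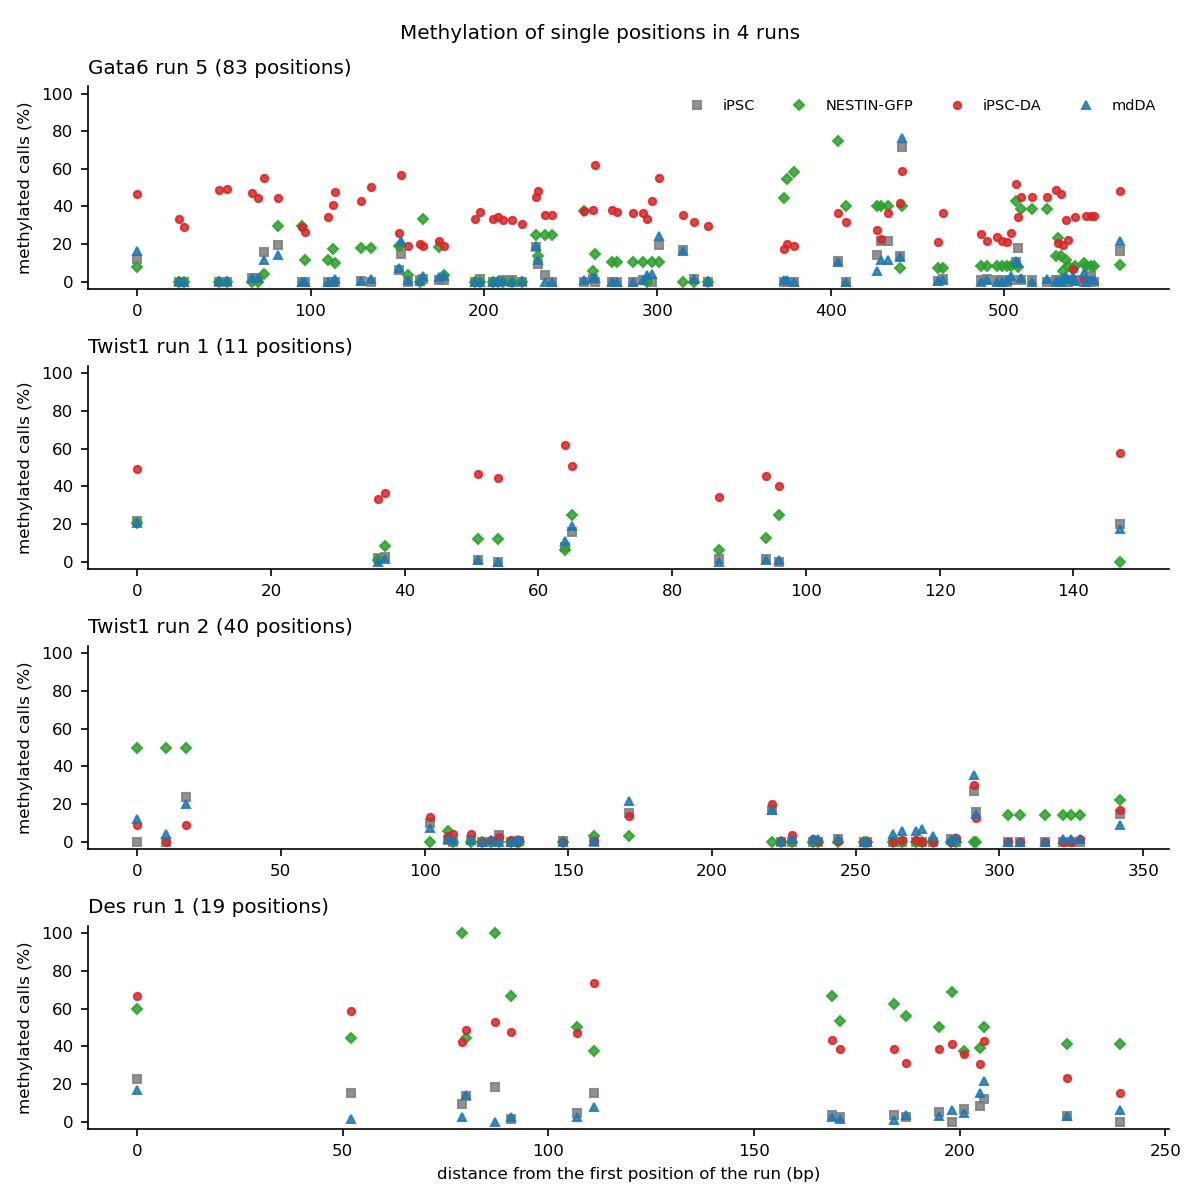
Share of methylated calls (%) at each covered position of Gata6 run 5, both Twist1 runs and Des run 1, by distance (bp) from the first position of the run, in the 4 libraries. Red points (iPSC-DA) lie above grey (iPSC) and blue (mdDA) points along Gata6 run 5 and Twist1 run 1 but not along Twist1 run 2, and in Des run 1 the precursors (green) are as high as iPSC-DA neurons or higher at most positions.

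Sox9 had 4 runs, of which 3 were called higher in iPSC-DA neurons. Run 3 (chr11:112643715-112644016, 24 positions, the most of the gene) was at 3.69% in iPSCs (3.05 to 4.46), 10.8% in precursors (8.52 to 13.6), 27.8% in iPSC-DA neurons (26.3 to 29.4) and 4.97% in primary mdDA neurons (4.25 to 5.82), a difference of 22.9 points (21.1 to 24.6). Run 4 (chr11:112646708-112646747, 5 positions) had the largest difference of the gene, 46.5 points (42.7 to 50.02; adjusted p = 7.9e-106, Fisher's exact test), and was at 5.70% in iPSCs (4.39 to 7.36), 14.4% in precursors (8.80 to 22.8), 57.5% in iPSC-DA neurons (54.4 to 60.5) and 11.0% in primary mdDA neurons (9.15 to 13.3). Its 43.1 points between iPSC-DA neurons and precursors (34.2 to 49.5) exceeded 99.0% of all runs of the genome. Runs 1 and 2 stood at 9.58%, 10.0%, 27.7% and 8.87%, and at 4.55%, 20.2%, 44.5% and 4.41%, in the order iPSC, NESTIN-GFP, iPSC-DA and mdDA. The difference between the DA libraries at Sox9 thus varied from 18.9 points in run 1 to 46.5 points in run 4 within 1 window.

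All 3 runs of the Des window were already about 50% methylated in the precursors. Run 3 lies at the far end of that window, which ends at 75372000. No annotation was used to tell whether run 3 belongs to Des. With runs of at least 10 positions, which left out run 3, the pooled difference between the DA libraries was 39.4 points (37.3 to 41.5). The level of the Des window pooled over 3 runs was 7.31% in iPSCs (6.48 to 8.23), 52.3% in precursors (48.1 to 56.4), 46.1% in iPSC-DA neurons (44.3 to 47.9) and 5.47% in primary mdDA neurons (4.70 to 6.35). Run 1 (chr1:75356852-75357091, 19 positions, the most of the gene) was at 6.71% in iPSCs (5.56 to 8.09), 53.4% in precursors (47.0 to 59.6), 41.3% in iPSC-DA neurons (38.6 to 43.9) and 5.61% in primary mdDA neurons (4.55 to 6.89). Run 3 (chr1:75371849-75371905, 9 positions) had the largest difference between the DA libraries, 48.9 points (42.0 to 55.0; adjusted p = 2.7e-37, Fisher's exact test), at 16.9% in iPSCs (13.998 to 20.4), 53.4% in precursors (44.4 to 62.3), 61.5% in iPSC-DA neurons (56.2 to 66.5) and 12.6% in primary mdDA neurons (9.23 to 16.9). Run 2 (15 positions) was at 4.23%, 50.3%, 47.0% and 3.51% in the same order. The precursors were above iPSC-DA neurons in runs 1 and 2 and below them in run 3. All 43 positions of these runs were higher in iPSC-DA than in mdDA neurons.

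The promoter of Des is shown because, by the placement described here, Des run 1 starts just before the transcription start. The sequence is that of RefSeq on GRCm38.p6 (chr1:75360042-75360321, plus strand), from 250 bases before the start to 30 bases after it. The coordinates of the files belong to an earlier build and were not converted. Instead, the covered positions were laid on the promoter's CpGs by their spacing alone: at 1 placement all 8 positions with at least 5 calls in any library fell on a CpG, and at the next best 5 of 8 did. Capitals mark the CpGs that held these positions, 4 of which lie in the printed stretch and 1 past its end.
Des: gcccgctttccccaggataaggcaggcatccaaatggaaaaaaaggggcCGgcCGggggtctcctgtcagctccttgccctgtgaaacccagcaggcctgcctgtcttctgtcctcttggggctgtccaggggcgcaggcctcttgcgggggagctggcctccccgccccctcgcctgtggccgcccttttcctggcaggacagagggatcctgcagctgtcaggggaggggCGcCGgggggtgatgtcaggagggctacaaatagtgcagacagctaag
Over these 8 positions the precursors had 84.4% methylation (74.7 to 90.9, 77 calls). The other libraries covered fewer of them: iPSCs had 19.8% (13.3 to 28.4) on 5 positions, iPSC-DA neurons 59.4% (47.6 to 70.2) on 2 positions and mdDA neurons 3.95% (1.35 to 11.0) on 2 positions. At the CpG 37 bases after the start, the only deeply covered one, the level was 15.2% of 66 calls in iPSCs, 44.4% of 9 in precursors, 58.7% of 63 in iPSC-DA neurons and 1.56% of 64 in mdDA neurons. The Des promoter holds 11 CpGs and 3 CCGG sites in 300 bases, while the median of 32851 RefSeq promoters of that length was 7 CpGs. Of these promoters, 52.8% held at least 1 CCGG and 21.1% held at least 3. The promoters of T (17 CpGs) and Twist1 (27 CpGs) could not be placed in this way.

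The comparison of iPSC-DA neurons with iPSCs sets the sorted neurons after 4 weeks of differentiation beside undifferentiated cells, with 1 library each. Of the 32 runs, 26 were called higher and 0 lower in iPSC-DA neurons, against 37.4% and 0.830% of all runs of the genome. The median difference was 34.0 points, against 7.82 points over all runs. Among runs under 20% in iPSCs, 25 of 30 were called, where 34.6% of such runs in the genome were, and with at least 10 positions it was 14 of 15, where the share in the genome was 31.5%. Runs called against mdDA neurons but not against iPSCs were limited to T run 4, whose 11.7 points (2.33 to 20.8) above iPSCs did not meet the size criterion. Since this comparison shares the iPSC-DA library with the comparison against mdDA neurons, its counts are not independent of those above.

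The primary neurons differed little from iPSCs at these genes. In mdDA neurons 0 of the 32 runs were called higher than in iPSCs and 2 lower, both at T (runs 4 and 5), against 16.3% and 1.68% of all runs. Without the size criterion, 10 runs had an adjusted p under 0.05 in Fisher's exact test, but the share of all runs that did was not counted. With a size criterion of 10 points, 0 runs were called higher and 2 lower, against 23.2% and 2.65% of all runs. The median difference was 0.600 points, and 28 of the 32 runs differed by less than 5 points. T run 4 was lower in mdDA neurons than in iPSCs by 40.5 points (interval of the difference -48.2 to -32.4; adjusted p = 9.3e-23, Fisher's exact test) and T run 5 by 20.4 points (-33.0 to -6.68; adjusted p = 0.013, Fisher's exact test). Both calls rest on runs of 5 positions, and 0 runs were called lower when runs were split at gaps of 50 bp or more. The call of run 5 rests on its positions with 7 calls each in mdDA neurons, since its other positions hardly differed. Among runs with a higher level in mdDA neurons than in iPSCs, the largest difference was that of Gata4 run 4, at 6.97 points (2.12 to 12.1).

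The precursor library stood between iPSCs and iPSC-DA neurons in most runs, closer to iPSCs at the long runs and above iPSC-DA neurons at Des runs 1 and 2 and in 6 other runs. Of the 32 runs, 10 were called higher in precursors than in iPSCs and 0 lower, where 34.8% and 0.0285% of all runs in the genome were. The 10 were all 3 runs of Des, Sox17 runs 1, 2 and 4, T runs 4 and 5, and Gata4 runs 4 and 5. The median difference was 10.8 points, near the 10.5 points over all runs. Among runs under 20% in iPSCs 8 of 30 were called, where the genome had 26.1%, and with at least 10 positions 3 of 15, where it had 15.0%. The precursors' share of called runs was thus close to the background. None of the 7 Gata6 runs, 4 Sox9 runs or 2 Twist1 runs was called in precursors, and their differences from iPSCs ranged from -0.238 to 16.1 points, from 0.415 to 15.6 points, and from 0.532 to 3.73 points.

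Between precursors and iPSC-DA neurons, 16 runs were called higher in iPSC-DA neurons and 1 lower, against 11.3% and 12.1% of all runs. The run called lower was T run 4, with -20.1 points (-29.4 to -8.65; adjusted p = 0.0015, Fisher's exact test), at the edge of the size criterion. With gaps under 50 bp, unweighted means of positions or the deeper library thinned, 0 runs were called lower. By gene, the runs called higher were 6 of 7 at Gata6, 3 of 5 at Gata4, 3 of 6 at Sox17, 2 of 4 at Sox9, 1 of 2 at Twist1, 1 of 5 at T and 0 of 3 at Des. The median difference was 20.9 points, against -0.125 points over all runs. Des run 1 was lower in iPSC-DA neurons by 12.1 points (interval of the difference -18.9 to -5.22; adjusted p = 0.0013, Fisher's exact test), which did not meet the size criterion, and 15 of its 19 positions were lower. Levels of precursors lay between those of iPSCs and iPSC-DA neurons in 22 runs, above those of iPSC-DA neurons in 8 and at or below those of iPSCs in 2.

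**Figure D4:**
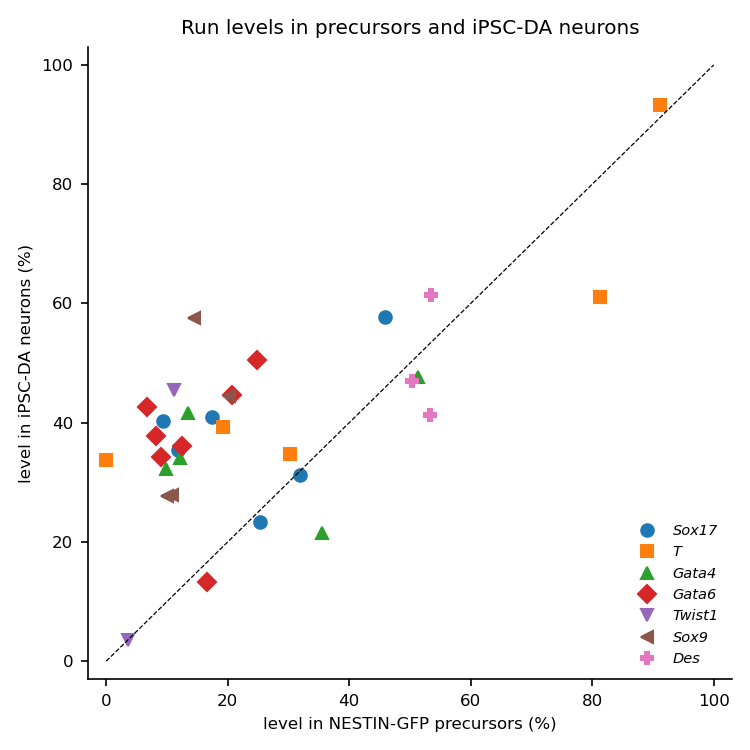
Level (%) of each of the 32 runs in NESTIN-GFP precursors (x axis) and in iPSC-DA neurons (y axis), with the dashed line marking equal levels and a symbol for each gene. The 4 Sox9 runs, 6 of the 7 Gata6 runs and the long Gata4 and Sox17 runs lie above the line, Gata6 run 4 lies below it, and the 3 Des runs lie around it at 50.3% to 53.4% in precursors.

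Most single positions of the windows were at an intermediate level in iPSC-DA neurons. Of the 547 positions, 38.0% were between 20% and 40% and 36.0% between 40% and 60% in iPSC-DA neurons, 15.4% were under 20%, and 2.19% reached 80%. In iPSCs 88.1% of the positions were under 20%, in precursors 56.1% and in mdDA neurons 86.8%. Over all 629262 positions, 15.1% and 11.5% were in the classes from 20% to 40% and from 40% to 60% in iPSC-DA neurons, and 20.8% reached 80%. This background is not matched for the level in iPSCs, where 68.7% of all positions were under 20% and 10.4% reached 80%. An intermediate level at a position means that some sequenced molecules were methylated and others were not, and RRBS of pooled cells cannot tell a part of the cells from a part of the alleles.

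**Figure D5:**
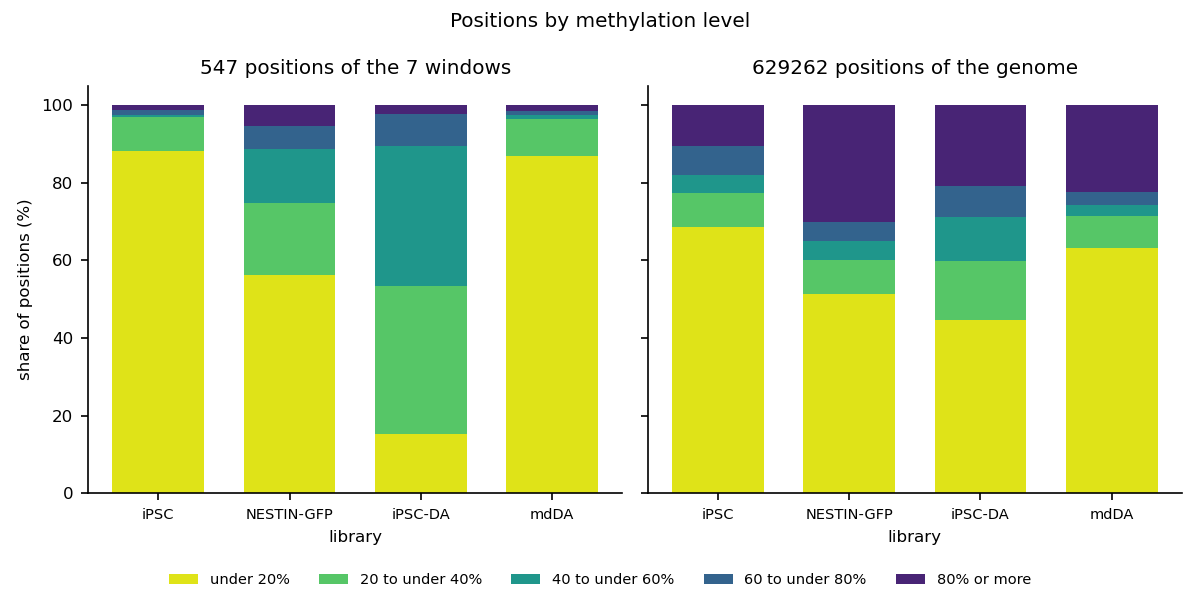
Share of positions (%) in 5 classes of methylation level for each library, for the 547 positions of the windows (left) and the 629262 positions of the genome (right). In the windows the iPSC-DA bar consists mostly of the classes from 20% to 40% and from 40% to 60% (38.0% and 36.0%), and the iPSC and mdDA bars of the class under 20% (88.1% and 86.8%).

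The strands of 1 CpG gave a measure of the spread within a library, because adjacent positions are read from opposite strands. The windows held 50 such pairs. The median absolute difference within a pair was 1.06 points in iPSCs, 9.37 in precursors, 11.5 in iPSC-DA neurons and 1.59 in primary mdDA neurons. In iPSC-DA neurons 21 of 50 pairs differed by more than 1.96 counting standard deviations, so that the spread between strands was larger than counting error, which is all that the intervals of runs cover. In that library the upper quartile of the difference was 23.2 points, and 16 of 50 pairs (32%) differed by at least 20 points, against 8.82% of pairs over the genome. These shares are not directly comparable, because the median counting standard deviation was 6.55 points in the windows and 4.04 over the genome. Over the genome 13317 of 70619 pairs differed by more than 1.96 counting standard deviations. These values describe single positions within a library and do not stand for the spread between samples.

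The 27 smaller runs in the windows, of which 13 were single positions, were not tested in the main setting. When runs of at least 1 position were tested, 3 of 59 were called lower in iPSC-DA than in mdDA neurons, against 7.35% of all runs. The 14 smaller runs under 20% in iPSCs had a median level of 9.38% in iPSCs, 40% in precursors, 41.1% in iPSC-DA neurons and 9.01% in primary mdDA neurons. At the 8 smaller runs with 50% or more in iPSCs, the medians were 76.6%, 97.3%, 67.8% and 85.4% in that order. Of these 8, which held 9 positions in all, 5 were lower in iPSC-DA than in mdDA neurons (4 at Gata4 and 1 at T) and 3 were higher, all at T.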

How the data were processed

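RRBS data of 4 mouse libraries with 1 library per condition (iPSCs, NESTIN-GFP precursors, and DA neurons from iPSCs or from embryos) were used. According to the study's methods and the submitters' processing notes, single 40-base reads were checked with FastQC and trimmed with Trim Galore 0.3.5 before alignment and methylation calling with Bareback and Bismark 0.10.1. For each cytosine position the authors deposited 2 counts, of methylated and of unmethylated calls, and the percent methylated that follows from them, with no normalization. Each strand of a CpG has its own position. The genome build is not given in the sources used here, and coordinates were taken as mm9. Total calls were 68545752 in iPSCs, 31419979 in precursors, 79648099 in iPSC-DA and 72993474 in mdDA neurons.

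The 7 genes, their windows and the lists used were chosen with earlier results of these data known. Positions with at least 5 calls in all 4 libraries, spaced less than 100 bp apart, formed runs, and runs of at least 5 positions whose midpoint lay in a window were used. All 7 genes and all their runs are reported, and for each gene the run with the most positions and the run with the largest difference between iPSC-DA and mdDA neurons are given in full. Calls were pooled per run and compared between libraries by two-sided Fisher's exact tests, with Benjamini-Hochberg adjustment over 31564 runs. A run was called at an adjusted p under 0.05 and a difference of at least 20 points. Because calls on a read are linked, these p-values are too small. The 5 comparisons share libraries. Alternatives changed 1 choice at a time. Other genes of the germ layers, and exons, introns and UTRs, were not analysed here, because no annotation of the build was used. Computations used Python 3.11.15, numpy 2.4.6, pandas 2.3.3 and scipy 1.17.1, and the code was tested on simulated data.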

Additional observations from a re-analysis of the deposited data

How the results depend on the processing

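Across 12 alternatives for each comparison, 97 of the 120 counts of called runs stayed within 1.5 times the count reported and 23 did not. With at least 10 positions per run, 15 runs were left. Runs called higher became 14 for iPSC-DA against mdDA neurons and 14 for iPSC-DA neurons against iPSCs, where 27.6% and 33.4% of all runs were called. They became 3 for precursors against iPSCs and 9 for iPSC-DA neurons against precursors, where 18.3% and 16.1% of all runs were. Both counts of lower calls that were above 0 became 0. With at least 1 position, 59 runs were tested. Of these, 36 were called higher in iPSC-DA than in mdDA neurons, against 13.7% of all runs. Runs called higher became 23 for precursors against iPSCs and 3 for mdDA neurons against iPSCs, where 44.7% and 23.9% of all runs were. Runs called lower became 3 for iPSC-DA against mdDA neurons and 1 for iPSC-DA neurons against iPSCs, against 7.35% and 3.90% of all runs. For iPSC-DA neurons against precursors they became 7, against 21.9% of all runs. The 2 runs called lower in mdDA neurons than in iPSCs became 1 with a minimum of 10 calls, with gaps under 200 bp, with at least 30 points and with the deeper library thinned, and 0 with gaps under 50 bp. In these settings 0.983% to 2.23% of all runs were called lower. The 1 run called lower in iPSC-DA neurons than in precursors became 0 with gaps under 50 bp, at least 30 points, unweighted means of positions and thinning. It became 3 with at least 10 points, where 22.3% of all runs were called lower. With at least 10 points, 16 runs were called higher in precursors than in iPSCs, against 50.8% of all runs. With at least 30 points, 5 were called higher in iPSC-DA neurons than in precursors, against 4.73% of all runs. Fewer or more runs and other size criteria change these counts by construction, and for the other settings the cause was not tested.

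The pooled difference between iPSC-DA and mdDA neurons kept its sign for all 7 genes under the 10 alternatives that apply to it. It ranged from 32.1 to 35.9 points at Sox17, 32.7 to 42.2 at T, 29.9 to 32.4 at Gata4, 31.8 to 34.4 at Gata6, 7.37 to 9.98 at Twist1, 22.9 to 31.99 at Sox9 and 38.0 to 41.9 at Des. No paired analysis was possible because each condition had 1 library, and for the same reason no replicate could be left out. The precursors' median depth of 16 calls limits what can be seen in short runs.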

Other observations

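In the runs that were low in both iPSCs and mdDA neurons, the remaining methylation was concentrated at positions that both libraries shared. These 30 runs held 480 positions, of which 108 were at 10% or more in iPSCs and 107 in mdDA neurons, and 92 were so in both. At these 92 positions the pooled level was 17.7% in iPSCs, 19.8% in precursors, 45.7% in iPSC-DA neurons and 19.96% in primary mdDA neurons. At the other 388 positions it was 1.60% in iPSCs, 15.3% in precursors, 32.6% in iPSC-DA neurons and 1.72% in primary mdDA neurons. The 92 positions were chosen by their values in iPSCs and mdDA neurons, so their levels there are a description. In 17 of the 30 runs the position with the highest level was the same in iPSCs and mdDA neurons. The same shares over all low runs of the genome were not counted, so this sharing is not known to be particular to these genes. Where these positions lie in the reads was not tested.

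Further values came from positions that reached 5 calls in iPSC-DA and mdDA neurons but not in all 4 libraries. At Sox17, 40 such positions had a pooled level of 39.3% in iPSC-DA neurons and 8.39% in primary mdDA neurons. Des had 14 of them, with 52.4% and 6.44%. For T the values were 42.4% and 7.84% on 16 positions, and for Gata6 39.5% and 10.2% on 27. Gata4 had 40.8% and 16.0% on 29 positions, and Sox9 60.7% and 23.3% on only 6. Twist1 again had the smallest difference, with 18.3% and 10.9% on 22 positions.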
